A study of Homo sapiens with 52 samples.

Results

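MALAT1, NEAT1, GAS5, SNHG1, H19, CYTOR, MIR31HG, MIR22HG and MIR17HG are long noncoding RNAs or host genes of small RNAs. They were taken by gene name from the gene-level values of the dataset, and are 9 of 78894 genes, or 9 of the 35036 genes typed as lncRNA. Levels were measured by stranded poly(A) RNA sequencing in 52 libraries of 3 established claudin-low breast cancer cell lines, SUM159PT (17 libraries), MDA-MB-231 (18) and HS578T (17). In each line NRP1, which encodes the cell surface co-receptor neuropilin-1, was depleted in 2 ways. In the siRNA arm, siNRP1#3, siNRP1#5 or the control duplex siNT (non-targeting) was given at 20 nM, and RNA was taken after 72 h. In the shRNA arm, shNRP1#3, shNRP1#5 or the control hairpin shNT was delivered by lentivirus made in HEK293T cells, puromycin removed cells without virus, and RNA was taken 48 h after seeding. Of the 18 groups, 16 had 3 libraries, and the siNRP1#5 group of SUM159PT and the shNRP1#3 group of HS578T had 2. The #3 reagents target only the transmembrane forms of NRP1 and differ in sequence between siRNA and shRNA, whereas siNRP1#5 and shNRP1#5 share a sequence and target total NRP1. The shRNA replicates were consecutive passages, so p-values for those groups measure the spread between passages.

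Long noncoding RNAs act as RNA, or are spliced around small RNAs that are the working product. MALAT1 sits in nuclear speckles, which store splicing factors, and NEAT1 is the scaffold of paraspeckles. GAS5 and SNHG1 carry small nucleolar RNAs (snoRNAs) in their introns, and their spliced exons are read by ribosomes and degraded by nonsense-mediated decay. H19 is an imprinted transcript of fetal tissues that holds a microRNA in an exon. CYTOR is a cytoplasmic and nuclear transcript with a near-identical copy, MIR4435-2HG. MIR31HG, MIR22HG and MIR17HG are the primary transcripts around miR-31, miR-22 and the miR-17-92 cluster. Bulk RNA cannot tell fewer cells of a kind from less RNA per cell.

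The annotation of the same GRCh38 build, taken from a GENCODE release that predates the one behind the deposited values, placed MALAT1 at chr11:65497640-65508073 and NEAT1 at chr11:65422774-65445540, both on the plus strand. Both RNAs are known to end by cleavage upstream of a small tRNA-like RNA, so the long forms have no poly(A) tail and keep an encoded A-rich tract. That end is printed because the libraries were enriched for poly(A). The tract is in capitals within the 60 bases before the annotated small RNA.
MALAT1, chr11:65506057-65506116: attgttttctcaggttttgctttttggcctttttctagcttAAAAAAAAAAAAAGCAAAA
NEAT1, chr11:65445481-65445540: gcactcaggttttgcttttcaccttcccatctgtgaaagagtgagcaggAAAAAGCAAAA

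SNHG1 lies at chr11:62851978-62855953 on the minus strand, 51 bases from SLC3A2, and holds 7 annotated snoRNAs. GAS5 lies at chr1:173858559-173868882 on the minus strand and overlaps the protein-coding gene ZBTB37. SNORD30, SNORD27 and SNORD25 of SNHG1 are shown to make plain that the snoRNAs, and not the spliced exons measured here, carry the guide function. Capitals mark box C (TGATGA) and box D (CTGA).
SNORD30, chr11:62853663-62853732: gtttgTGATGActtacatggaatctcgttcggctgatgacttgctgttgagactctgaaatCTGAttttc
SNORD27, chr11:62855012-62855083: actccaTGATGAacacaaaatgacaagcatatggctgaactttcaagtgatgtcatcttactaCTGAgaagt
SNORD25, chr11:62855564-62855632: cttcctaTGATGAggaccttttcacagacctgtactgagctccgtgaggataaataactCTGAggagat

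MIR17HG (chr13:91347686-91397592, plus strand) holds 6 microRNAs, MIR22HG (chr17:1711447-1717174, minus strand) and H19 (chr11:1995166-2004552, minus strand) hold 1 each, and MIR31HG (chr9:21380073-21559891, minus strand) holds miR-31 and a snoRNA in introns. MIR22HG overlaps WDR81, and MIR31HG overlaps the interferon genes IFNA2, IFNA8, IFNA1 and IFNE. The mature sequences below are from RefSeq (GRCh38.p14), with the seed, bases 2 to 8, in capitals. They show that the MIR17HG products fall into seed groups, miR-17-5p with miR-20a-5p and miR-19a-3p with miR-19b-3p. The mature microRNAs themselves are too short for these libraries.
hsa-miR-17-5p: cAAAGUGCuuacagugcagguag
hsa-miR-20a-5p: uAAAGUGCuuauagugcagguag
hsa-miR-18a-5p: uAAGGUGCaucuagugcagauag
hsa-miR-19a-3p: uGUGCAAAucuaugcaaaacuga
hsa-miR-19b-3p: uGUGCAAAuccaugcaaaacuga
hsa-miR-92a-3p: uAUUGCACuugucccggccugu
hsa-miR-22-3p: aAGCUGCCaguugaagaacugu
hsa-miR-31-5p: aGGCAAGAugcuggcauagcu
hsa-miR-675-5p (H19): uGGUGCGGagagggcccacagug

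The libraries held 25310443 to 72003442 expected counts (median 44804505). NRP1 was lowered in every knockdown group, to between 3.32% (MDA-MB-231 siNRP1#5) and 60.6% (MDA-MB-231 siNRP1#3) of its non-targeting mean, and the highest knockdown library was below the lowest control library each time. VIM, a mesenchymal marker, was at 1519 CPM or more in all lines, and ZEB1 averaged 16.6 to 30.7 CPM. Over all libraries of a line CLDN4, a claudin, averaged 150 CPM in MDA-MB-231 against 8.56 in HS578T (median 3.18) and 7.15 in SUM159PT (median 1.80). In MDA-MB-231 CLDN7, CLDN3 and CDH1 averaged 23.6, 5.58 and 1.86 CPM, each above its mean in the other lines. CPM are counts scaled to library size with trimmed mean (TMM) factors. In HS578T siNRP1#5, 59 genes that mark MDA-MB-231 against HS578T controls stood at a median of 13.3% to 24.8% of their MDA-MB-231 level. The same measure was 2.57% to 7.42% in HS578T siNRP1#3, 0.691% to 2.19% in siNT and at most 0.457% in the HS578T shRNA groups, and the part of this share in the HS578T siRNA results was tested only where a subtracted value is given. Replicate 2 of HS578T siNRP1#5 also stood at 8.72% for 70 SUM159PT markers, and replicates 1 and 3 at 2.09% and 1.65%, a share that was not subtracted. In MDA-MB-231 shNRP1#3, replicate 3 stood at 2.00% for 163 HS578T markers and 2.48% for 122 SUM159PT markers.

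Levels per length in the non-targeting controls ran from a mean of 0.01 TPM (MIR31HG in MDA-MB-231) to 450 TPM (CYTOR in the same line). GAS5 and CYTOR led in every line. TPM is a share of all transcripts corrected for their length. As the mean TPM of the 6 control libraries, GAS5 was at 225 (SUM159PT), 147 (MDA-MB-231) and 275 (HS578T). CYTOR was at 161, 450 and 167 TPM in that order, and SNHG1 at 52.8, 61.9 and 45.5 TPM. Libraries of GAS5 and CYTOR overlapped in SUM159PT and HS578T, and did not in MDA-MB-231, where CYTOR was highest. NEAT1 was at 25.4, 15.9 and 5.61 TPM, and MALAT1 at 10.3, 10.4 and 4.12 TPM. They were neighbours in the order, with overlapping libraries, in SUM159PT and HS578T. MIR22HG was at 6.51, 15.1 and 5.94 TPM. MIR17HG was below 1 TPM on average in each line. H19 and MIR31HG were the transcripts that set HS578T apart, with H19 at 117 TPM (SD 205) against 0.605 in SUM159PT and 0.205 in MDA-MB-231. MIR31HG was at 13.1 TPM in HS578T, and in the other lines it never passed 7 counts in a library.

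**Figure D1:**
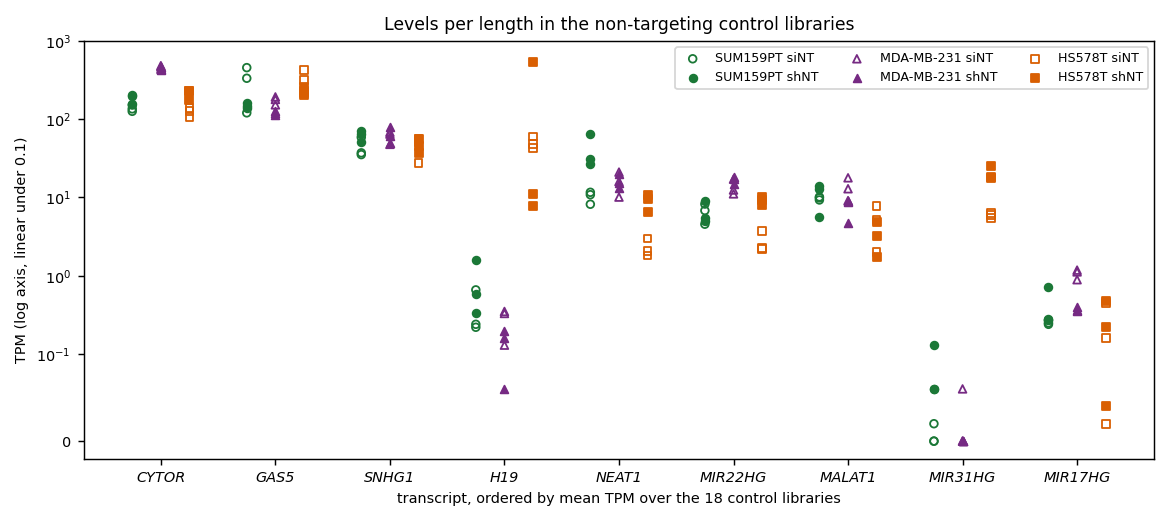
Level of each transcript in the 18 non-targeting control libraries, in TPM on a log axis that is linear under 0.1, with colour and shape for the cell line, open symbols for siNT and filled symbols for shNT. CYTOR, GAS5 and SNHG1 lie highest in SUM159PT and MDA-MB-231, while H19 and MIR31HG rise above 5 TPM only in HS578T, where 1 shNT library carries most of the H19.

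The question of how far the lines differ was put to the controls in 1 edgeR quasi-likelihood fit over all 52 libraries, with p-values adjusted over 23416 genes. Of 27 tests on the transcripts, 16 passed the threshold of 0.05. That is 59.3%, against 64.4% of all genes, so the transcripts were not called more often than genes at large. MIR31HG passed the filter on low counts only through HS578T, where it was high. Its calls between HS578T and the other lines, although among the 16, had to differ and are a description. The shares of genes called were 59.4% for SUM159PT against MDA-MB-231, 70.2% for HS578T against MDA-MB-231 and 63.5% for HS578T against SUM159PT. CYTOR was 1.09 ± 0.14 (SE, log2) lower in SUM159PT than in MDA-MB-231 (adjusted p = 1.01e-08). GAS5 was 1.58 ± 0.28 higher in HS578T than in MDA-MB-231 (adjusted p = 5.76e-06). H19 was 10.20 ± 1.40 higher in HS578T than in MDA-MB-231 (adjusted p = 5.66e-08), a size that moves with the spread of H19 within HS578T. NEAT1 was 1.60 ± 0.34 lower in HS578T than in SUM159PT (adjusted p = 8.51e-05). SNHG1 was the only transcript with no call between any pair of lines, its differences being 0.13 to 0.34 with SE 0.21. With shNT alone, the differences of NEAT1, CYTOR, MIR22HG and MIR17HG between HS578T and MDA-MB-231 were -0.04, -0.25, -0.03 and -1.25, and none passed the threshold. GAS5 also lost its calls with shNT alone, at 0.73 for SUM159PT against MDA-MB-231 (adjusted p = 0.129) and 0.91 for HS578T against SUM159PT (0.0522). With siNT alone MALAT1, CYTOR and GAS5 lost theirs for HS578T against SUM159PT (-0.42, 0.14 and 0.38) and MIR22HG lost its own for SUM159PT against MDA-MB-231 (-0.58, adjusted p = 0.0900). MIR22HG in HS578T against SUM159PT, -0.17 in all controls with no call, was called in opposite directions, at -1.10 with siNT alone (adjusted p = 0.00186) and 0.76 with shNT alone (adjusted p = 0.0254).

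Knockdown was compared with its own non-targeting control in each line. Of 100 such tests, 13 were called, 11 higher and 2 lower, which is 13% against 11.3% of all genes in the same comparisons. The number of calls is therefore near the background, and the account below rests on which transcripts moved and how far. MIR31HG was tested in HS578T only. Comparisons with the same reagent type and line share their control libraries, so their values are set side by side and not counted as separate support.

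**Figure D2:**
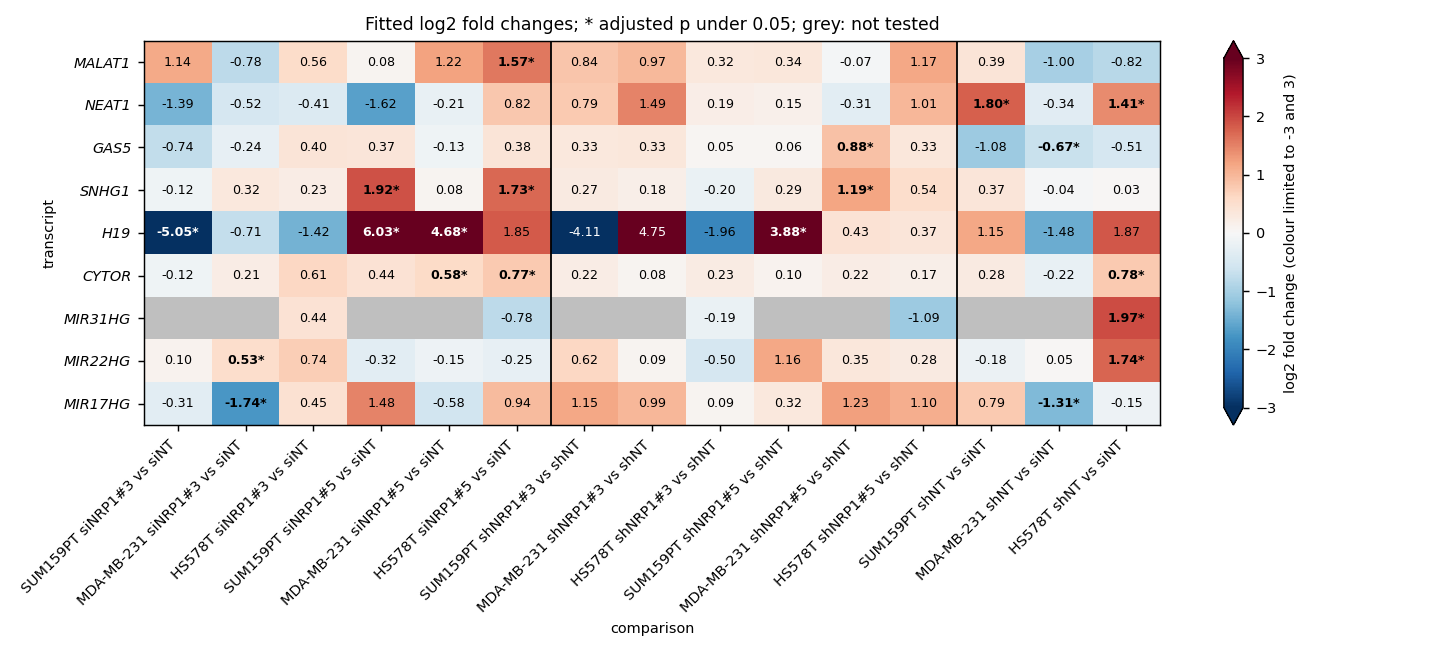
Fitted log2 fold change of each transcript (rows) in each comparison (columns), with colour limited to the range -3 to 3, an asterisk for an adjusted p under 0.05 and grey for transcripts too low to test. SNHG1 and H19 are higher after siNRP1#5 in SUM159PT, at 1.92 and 6.03; the H19 value of -5.05 rests on at most 1.3 counts per siNRP1#3 library and is no measured fold.

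SNHG1 rose with siNRP1#5 in SUM159PT and HS578T, and with shNRP1#5 in MDA-MB-231. In SUM159PT it was at 51.1, 39.5 and 31.3 CPM with siNT and 186 and 119 CPM with siNRP1#5. HS578T gave 56.5, 70.3 and 34.3 CPM with siNT and 158, 143 and 234 CPM with siNRP1#5. The groups do not overlap in either line. MDA-MB-231 gave 43.7, 48.6 and 35.9 CPM with siNT against 59.3, 48.9 and 24.9 CPM with siNRP1#5, which overlap. The rise was 1.92 ± 0.30 (SE, log2; adjusted p = 0.000885) in SUM159PT, 1.73 ± 0.34 (adjusted p = 0.00266) in HS578T and 0.08 ± 0.25 (adjusted p = 0.845) in MDA-MB-231. Of 8 transcripts tested in SUM159PT 2 were called, with 17.9% of all genes, and of 9 in HS578T 3 were called, with 18.7%. In a fit on siNRP1#5 and siNT alone the SUM159PT call was lost (1.91, adjusted p = 0.0590). After the MDA-MB-231 marker share was subtracted from the HS578T libraries, SNHG1 was 1.99 higher (adjusted p = 0.00208). The 3 lines differed in the size of the siNRP1#5 change (F = 10.97, adjusted p = 0.00276), and NEAT1 was the other of 2 transcripts called in that test of equality, where 18.2% of genes were called. Without replicate 2 the adjusted p for SNHG1 was 0.05003, just above the threshold.

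With the shRNA of the same sequence, the rise of SNHG1 passed the threshold in MDA-MB-231. It was at 54.5, 41.2 and 31.3 CPM with shNT and 94.6, 98.8 and 95.1 CPM with shNRP1#5. The 3 knockdown passages lay close together and above every control. The rise was 1.19 ± 0.25 (adjusted p = 0.00309), and 20.7% of all genes were called in that comparison. SUM159PT shNRP1#5 libraries were at 39.2, 86.1 and 67.1 CPM against 54.8, 45.4 and 60.2 CPM with shNT, and HS578T at 57.6, 86.7 and 93.1 against 46.4, 56.3 and 58.7 CPM. Both pairs overlap. Averaged over the lines, SNHG1 rose by 1.23 ± 0.18 with siNRP1#5 (adjusted p = 1.25e-06) and by 0.67 ± 0.17 with shNRP1#5 (adjusted p = 0.00664), and the latter was 0.52 without replicate 2 (adjusted p = 0.242). The change with siNRP1#5 less that with shNRP1#5 was 1.63 ± 0.40 in SUM159PT (adjusted p = 0.0425, 2.51% of genes called) and -1.11 ± 0.35 in MDA-MB-231 (adjusted p = 0.0287, 23.7% called). HS578T gave 1.19 ± 0.47 (adjusted p = 0.272, 0.854% called). Leaving out single libraries took the SUM159PT difference to between 1.23 and 1.81 and the MDA-MB-231 difference to as little as -0.93, with adjusted p above 0.05 in 13 and 6 cases. The #3 reagents left SNHG1 within 0.32 of the control in every line, with no call.

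GAS5 rose past the threshold in 1 comparison of the main fit. MDA-MB-231 shNRP1#5 held 78.2, 86.3 and 81 CPM and shNT 48.4, 45.4 and 40.2 CPM, with no overlap and a rise of 0.88 ± 0.12 (adjusted p = 7.13e-05). With siNRP1#5 the same line held 73.5, 58 and 57.1 CPM against 72, 64 and 72.6 CPM with siNT (-0.13 ± 0.12, adjusted p = 0.448). The difference between the reagents was -1.01 ± 0.17 (adjusted p = 0.000257), and it passed the threshold with each library left out in turn. GAS5 varied widely among SUM159PT siRNA libraries, from 60 to 245 CPM with siNT, from 42.1 to 155 with siNRP1#3, and 336 and 54.5 with siNRP1#5. In each of these groups replicate 3 was the lowest. No GAS5 change with knockdown in SUM159PT or HS578T passed the threshold in the main fit. With shNRP1#3 every library lay above every shNT library in MDA-MB-231 (50.3 to 60.4 against 40.2 to 48.4 CPM) and SUM159PT (82.0 to 109 against 71.5 to 78.3 CPM). The MDA-MB-231 value was 0.33 (adjusted p = 0.141), and 0.34 in a fit on the 2 groups alone (0.0352). MDA-MB-231 siNRP1#3 lay below siNT (at most 62.8 against at least 64.0 CPM). For siNRP1#5 in that line limma on log2(TPM + 0.1) gave -0.40 (adjusted p = 0.0280).

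The other snoRNA host genes were read as a list of 27, of which 25 could be tested in MDA-MB-231. With shNRP1#5, 17 of the 25 rose and none fell, with a median of 0.66 on the log2 scale against 0.019 over all genes and 20.7% of all genes called. SNHG4 rose by 1.07 ± 0.17 (adjusted p = 0.000291), SNHG30 by 0.96 ± 0.16 and SNHG12 by 0.96 ± 0.21. SNHG16, SNHG9 and SNHG29 were at 0.26, 0.26 and 0.14 with no call. With siNRP1#5 in the same line 1 of 25 rose and 4 fell (20%, against 29.4% of all genes), with a median of 0.011. The controls of this line differed as well. With shNT against siNT 1 of 25 was higher and 10 were lower (44%, against 20.6% of all genes), with a median of -0.37. The part of that control difference in the shNRP1#5 rise was not tested. In SUM159PT siNRP1#5, where SNHG1 rose most, 4 of 26 rose and none fell (median 0.37), 15.4% called against 17.9% of all genes. In HS578T siNRP1#5 5 of 26 rose and 1 fell (median 0.47), 23.1% against 18.7%. Averaged over the lines, siNRP1#5 gave 6 higher and 3 lower of 27 (33.3%, with 30.3% of all genes called), with TAF1D at 0.84 ± 0.19 and SNHG15 at 0.70 ± 0.18. The averaged shNRP1#5 change gave 3 higher (11.1%, against 15.5% of all genes), among them SNHG12 (0.69 ± 0.16) and SNHG7 (0.53 ± 0.18). For siNRP1#3 the average gave 3 higher and 3 lower (22.2%, against 21.3%), led by SNHG30 (0.63 ± 0.14) and SNHG5 (-0.47 ± 0.14), and for shNRP1#3 SNHG14 alone (1.51 ± 0.37), with 5.91% of all genes called. The averaged shares are near those of all genes.

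**Figure D3:**
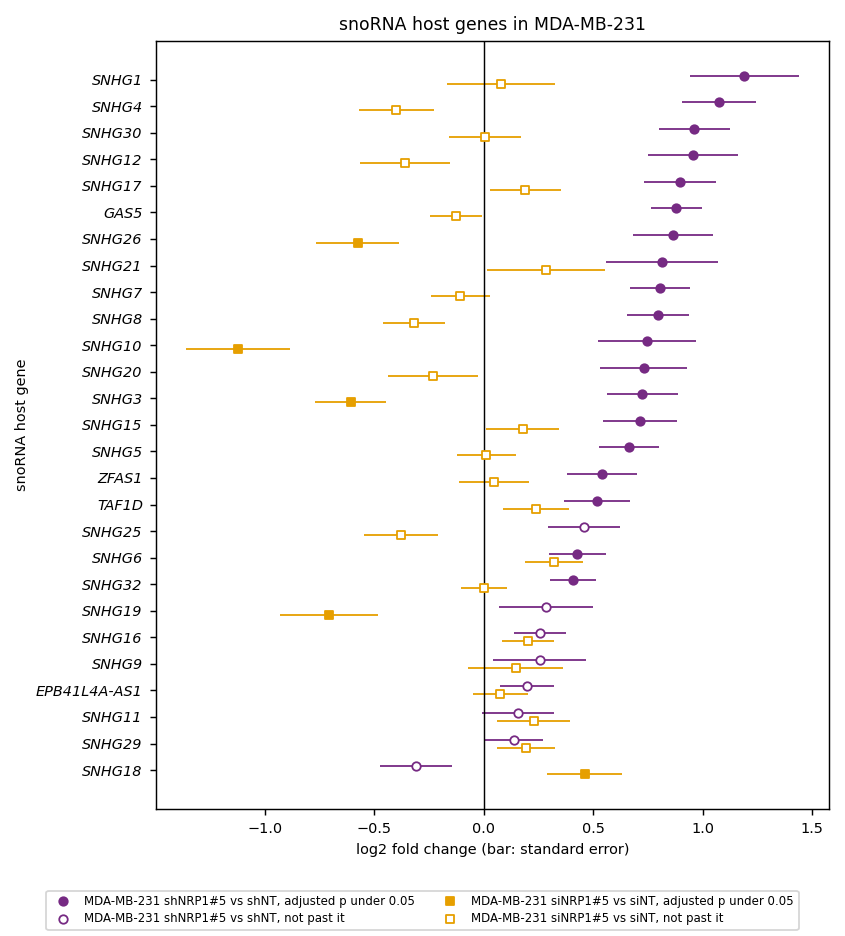
Fitted log2 fold changes, with SE, of SNHG1, GAS5 and the other snoRNA host genes in MDA-MB-231 with siNRP1#5 and with shNRP1#5, each against its own non-targeting control, with filled symbols for an adjusted p under 0.05. The shNRP1#5 values lie above 0 for every host but SNHG18, with SNHG1 at 1.19 and GAS5 at 0.88, while the siNRP1#5 values lie on both sides of 0, from -1.12 (SNHG10) to 0.46 (SNHG18).

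Nonsense-mediated decay degrades the spliced forms of GAS5 and SNHG1, so 12 of its factors were read beside them. Averaged over the lines, siNRP1#5 gave 1 higher and 2 lower (25%, against 30.3% of all genes), SMG6, the endonuclease of the pathway (-0.56 ± 0.10, adjusted p = 3.44e-05), and NBAS (-0.81 ± 0.14). With shNRP1#5 SMG6 was the only call (-0.36 ± 0.10), and in MDA-MB-231 alone 1 of 12 fell. With siNRP1#3 DHX34 (-0.58 ± 0.15) and SMG5 (-0.48 ± 0.13) fell, and shNRP1#3 gave no call. The shares called, 8.33% with shNRP1#5 and 16.7% with siNRP1#3, were below those of all genes (15.5% and 21.3%). SLC3A2, the amino acid transporter chain next to SNHG1, rose by 0.67 ± 0.18 with siNRP1#5 (adjusted p = 0.00344). ZBTB37, which overlaps GAS5, fell by 1.08 ± 0.20 on the log2 scale (adjusted p = 5.2e-05). Of 11 neighbouring protein-coding genes, 2 rose and 2 fell in that average, 36.4% against 30.3% of all genes.

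H19 was the transcript with the largest changes, and in SUM159PT it rose with both #5 reagents while the #3 libraries held fewer counts than their controls. With siNT it was at 0.277, 0.295 and 1.13 CPM, with siNRP1#5 at 15.5 and 59.3 CPM, and with siNRP1#3 at 0, 0.0287 and 0.0162 CPM. The 3 groups do not overlap. The rise with siNRP1#5 was 6.03 ± 0.93 (SE, log2; adjusted p = 0.00101). The siNRP1#3 libraries held 0, 1.3 and 0.8 expected counts, at or under a floor of 3 counts, so no fold is given. The test on them was called (adjusted p = 0.0345), as 1 of 8 transcripts in that comparison with 8.66% of all genes, and the call was lost without siNT replicate 3 (adjusted p = 0.107) or any siNRP1#3 library. With shNT the line held 0.945, 2.52 and 0.429 CPM, with shNRP1#5 37.9, 6.67 and 11.4 CPM and with shNRP1#3 0.0834, 0.011 and 0.145 CPM. The same order is seen, again without overlap. The shNRP1#5 rise was 3.88 ± 0.81 (adjusted p = 0.00968), the only call of 8 transcripts where 5.94% of genes were called, and without shNT replicate 1 it was 3.70 (adjusted p = 0.0580). The shNRP1#3 test was not called (adjusted p = 0.0628, 1.4% of genes called, 0 of 8 transcripts), and DESeq2 called it (0.00482).

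In MDA-MB-231 H19 was near the floor with siNT (0.199, 0.0943 and 0.552 CPM, or 8.4, 5.0 and 29.6 counts) and at 6.12, 6.56 and 9.21 CPM with siNRP1#5. The fitted difference was 4.68 ± 1.39 (adjusted p = 0.0222), 1 of 2 transcripts called where 29.4% of genes were. H19 passed the filter on low counts in this line through the few libraries where it was high, so its call, although among the 13, had to differ and is given as a description. Without siNT replicate 1 or 2 the adjusted p was 0.0775 and 0.0763. The HS578T markers were at 0.0224% to 0.0613% of their HS578T level in the siNRP1#5 libraries, and at up to 0.471% with siNT. With shNT the line held 0.136, 0.0778 and 0.0926 CPM and with shNRP1#5 0.189, 0.17 and 0.0656 CPM, which overlap. In shNRP1#3 replicates 1 and 2 were at 0 and 0.0318 CPM and replicate 3 at 8.43 CPM. That replicate is the library with 2.00% of the HS578T marker level, and the test was not called (adjusted p = 0.116, 0 of 8 transcripts, 3.65% of genes called).

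HS578T expressed H19 in all libraries. With siNT it was at 119, 97.5 and 103 CPM, with siNRP1#3 at 31.9, 32.6 and 55.2 CPM and with siNRP1#5 at 439, 361 and 354 CPM. These 3 groups do not overlap. Among shRNA passages the replicates differed far more than the treatments, with 1157, 17.1 and 18.7 CPM for shNT, 200 and 1.69 CPM for shNRP1#3 and 1432, 32.1 and 31.5 CPM for shNRP1#5. Replicate 1 stood far above the others in each of the 3 groups. In the fit over the 6 groups of the line, which share 1 estimate of the spread, the siNRP1#5 and siNRP1#3 differences were 1.85 (adjusted p = 0.447) and -1.42 (adjusted p = 0.675), with no call. In a fit on the siRNA group and its control alone they were 1.83 ± 0.20 (adjusted p = 0.000443, 22.9% of genes called) and -1.42 ± 0.25 (adjusted p = 0.0138, 5.26% called). The main fit called 0 of 9 transcripts with siNRP1#3 (4.65% of genes), 0 of 9 with shNRP1#3 (0.0356%) and 0 of 9 with shNRP1#5 (0.946%). Replicate numbers of the HS578T shRNA libraries deviated together, and a fit with the replicate number as a block within siRNA and shRNA gave H19 at -2.83 ± 0.32 with shNRP1#3 (adjusted p = 0.00111, 1.48% of genes called) and 0.67 ± 0.24 with shNRP1#5 (adjusted p = 0.0990, 7.66% called). Averaged over the 3 lines, H19 rose by 4.18 ± 0.90 with siNRP1#5 (adjusted p = 0.000484), and the other averages were not called. The siNRP1#5 average takes in the MDA-MB-231 difference, which had to differ, and the HS578T difference, not called in the main fit. It is therefore given as a description, although it is counted among the averaged calls below.

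**Figure D4:**
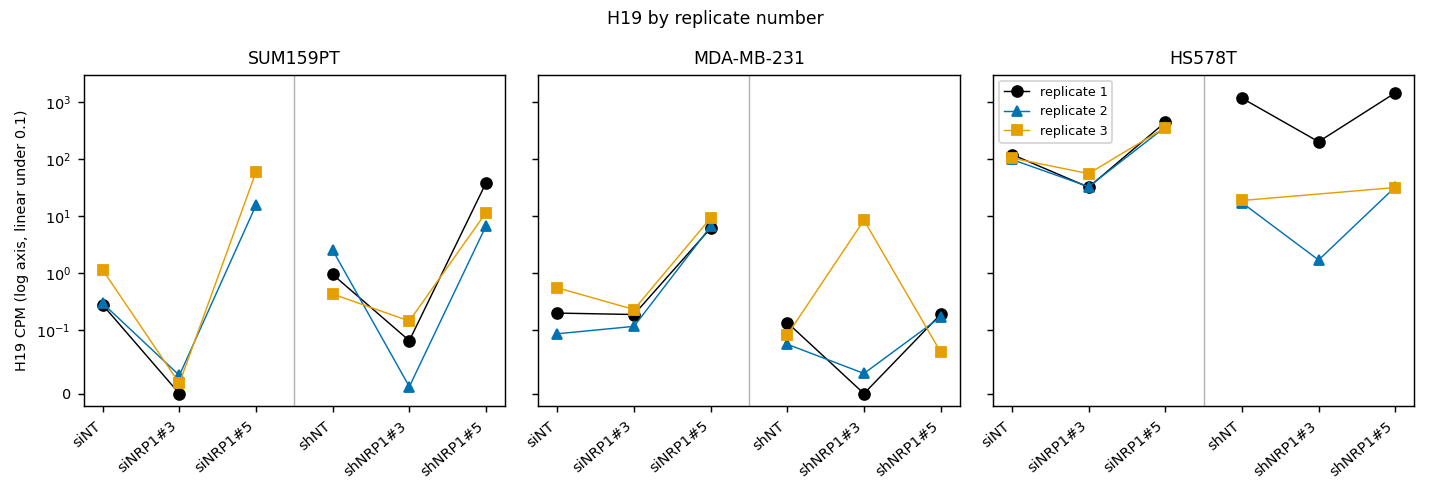
H19 in CPM on a log axis that is linear under 0.1, by treatment and replicate number, with lines joining libraries of the same number. In SUM159PT and with HS578T siRNA the #3 libraries lie below and the #5 libraries above their control, while HS578T shRNA replicate 1 lies at 200 to 1432 CPM and the other replicates at 1.69 to 32.1 CPM.

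CYTOR rose modestly with siNRP1#5. In MDA-MB-231 it was at 125, 130 and 136 CPM with siNT and 173, 195 and 206 CPM with siNRP1#5, with no overlap and a rise of 0.58 ± 0.10 (adjusted p = 0.00032). HS578T held 52, 50.5 and 67.4 CPM with siNT and 116, 65.1 and 109 CPM with siNRP1#5, which overlap by 1 library (0.77 ± 0.24, adjusted p = 0.0361). Leaving out siNRP1#5 replicate 1 or 3, or siNT replicate 1 or 2, ended that call (adjusted p 0.0942 to 0.131), as did subtraction of the MDA-MB-231 share (0.73, adjusted p = 0.0931). CYTOR in MDA-MB-231 controls lies above that in HS578T, and the part of the 13.3% to 24.8% marker share in the HS578T value was not tested beyond this. SUM159PT held 48.3, 61 and 45.1 CPM with siNT and 76.5 and 61.7 CPM with siNRP1#5 (0.44 ± 0.26, adjusted p = 0.254). The average over lines was 0.59 ± 0.12 (adjusted p = 0.000174), and the change did not differ between lines beyond its error (F = 0.721, adjusted p = 0.668). With siNRP1#3 and both shRNAs CYTOR differed from its control by -0.12 to 0.61, with no call.

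CYTOR lies at chr2:87454781-87636740 on the plus strand. MIR4435-2HG, on the same chromosome, shares most of its exons with CYTOR, so reads that fit both were divided by the authors' estimation step. The main transcripts, CYTOR-201 (529 bases) and MIR4435-2HG-203 (514 bases), were identical at 509 of 515 aligned columns (98.83%), with a longest identical run of 180 bases. A 90-base window from base 204 of CYTOR-201 and base 189 of MIR4435-2HG-203 is printed because it holds 3 of the 6 differences, in capitals.
CYTOR-201: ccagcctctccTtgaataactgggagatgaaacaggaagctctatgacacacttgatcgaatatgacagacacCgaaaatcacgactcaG
MIR4435-2HG-203: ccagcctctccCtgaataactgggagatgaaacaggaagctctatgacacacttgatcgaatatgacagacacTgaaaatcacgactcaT

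MIR4435-2HG rose with siNRP1#5 in each line, by 0.79 ± 0.18 in SUM159PT (adjusted p = 0.00935), 0.89 ± 0.10 in MDA-MB-231 (adjusted p = 2.28e-06) and 0.78 ± 0.20 in HS578T (adjusted p = 0.0125). In MDA-MB-231 its libraries went from 88.0 to 104 CPM with siNT to between 163 and 190 CPM. How much of either gene's rise belongs to the other copy cannot be told apart from these values. CYTOR-201 took 79.5% to 93.0% of CYTOR in every group by the deposited isoform percent.

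MALAT1 was low for an RNA known as one of the most abundant in the nucleus, at 7.08 to 193 CPM (median 27.8), and its replicates were spread widely. HS578T held 31, 20.8 and 9.21 CPM with siNT and 59.5, 47.4 and 74.9 CPM with siNRP1#5, with no overlap and a rise of 1.57 ± 0.39 (adjusted p = 0.0115). After subtraction of the MDA-MB-231 share the rise was 1.76 (adjusted p = 0.0118). It was the only call in 12 comparisons within lines. Without a call, SUM159PT siNRP1#3 (35.9 to 90.5 CPM) lay above siNT (24.2 to 30.0 CPM), at 1.14 (adjusted p = 0.204). MDA-MB-231 shNRP1#3 (28.4 to 44.6 CPM) lay above shNT (12.9 to 21.5 CPM), at 0.97 (adjusted p = 0.489). Replicate 3 of that shNRP1#3 group carried markers of the other lines. In MDA-MB-231 siNRP1#5 replicate 1 stood at 193 CPM and the others at 31.5 and 24.6 CPM, against 33.9, 23.1 and 51.2 CPM with siNT. The averaged siNRP1#5 rise of 0.95 ± 0.33 (adjusted p = 0.0274) was 0.55 without replicate 1 (adjusted p = 0.257), 0.70 without replicate 2 (adjusted p = 0.275) and 0.63 without the HS578T siNRP1#5 libraries (adjusted p = 0.301). TALAM1, the antisense transcript of MALAT1, was not called in SUM159PT or in the averages (1.48 ± 0.69 with siNRP1#5, adjusted p = 0.0996).

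NEAT1 was lower with both NRP1 siRNAs in SUM159PT, where siNT held 31.3, 29.7 and 31.6 CPM, siNRP1#3 8.41, 14.2 and 12.6 CPM and siNRP1#5 11 and 8.85 CPM. Every knockdown library was below every control, and neither difference passed the threshold in the main fit (-1.39 ± 0.48, adjusted p = 0.0856, and -1.62 ± 0.57, adjusted p = 0.0578). Both passed with DESeq2 (adjusted p = 0.0307 and 0.0155), the first also in a fit on the 2 groups alone (0.0196) and the second with limma on TPM (0.0388). The same line held 69.5, 174 and 85.8 CPM with shNT, so the spread that entered the fit was wide. Its shRNA knockdowns showed no such fall. SUM159PT averaged 189 CPM (107 to 301) with shNRP1#3 and 119 CPM (40.7 to 207) with shNRP1#5, and both overlap shNT. HS578T held 15.7, 9.9 and 9.81 CPM with siNT and 24.1, 22.9 and 15.4 CPM with siNRP1#5 (0.82 ± 0.33, adjusted p = 0.0990). After subtraction of the MDA-MB-231 share the HS578T difference was 0.58 (adjusted p = 0.289). MDA-MB-231 held 37.9, 26 and 55.1 CPM with siNT and 66.1, 16.4 and 18.8 CPM with siNRP1#5. The lines differed in the siNRP1#5 change (F = 5.70, adjusted p = 0.0412), a call that was lost without any replicate number (adjusted p 0.0553 to 0.245) and without the HS578T siNRP1#5 libraries (adjusted p = 0.342). Averaged over lines, NEAT1 fell by 0.78 ± 0.27 on the log2 scale with siNRP1#3 (adjusted p = 0.0367), and this was -0.50 without replicate 1 (adjusted p = 0.335) and -0.86 without replicate 3 (adjusted p = 0.0989). The shNRP1#3 average went the other way, at 0.83 with no call (adjusted p = 0.0690). With shNRP1#3 MDA-MB-231 went from 29.2, 27.1 and 39.7 CPM to 91.1, 107 and 71.2 CPM with no overlap (1.49 ± 0.50, adjusted p = 0.128), in the group whose replicate 3 carried markers of the other lines. HS578T went from 36.2, 24.2 and 32.6 CPM with shNT to 48.4, 102 and 37.9 CPM with shNRP1#5, again without overlap (1.01 ± 0.33, adjusted p = 0.142). MDA-MB-231 shNRP1#5 (19.6 to 32.9 CPM) and HS578T shNRP1#3 (30.4 to 41.3 CPM) overlapped their controls. The long form NEAT1-202 (22743 bases), which builds paraspeckles, took 0.24% to 7.01% of NEAT1 by isoform percent in the group means. NEAT1-210 took 25.5% to 77.3%. The long form has no poly(A) tail and the libraries were enriched for poly(A), so these estimated shares need not be those in the cell.

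Of 14 paraspeckle and nuclear speckle proteins, none was called down with siNRP1#5 in the average and 6 rose, led by the splicing factors SRSF2 (0.72 ± 0.16) and SRSF3 (0.65 ± 0.12), with 30.3% of all genes called. With siNRP1#3, 4 fell and none rose, among them SFPQ, an RNA-binding protein of the paraspeckle (-0.47 ± 0.16), with 21.3% of all genes called. The shRNA averages gave 0 of 14 for shNRP1#3 (5.91% of all genes called) and 0 of 14 for shNRP1#5 (15.5% called). Across the 4 averages, 8 of 36 tests on the 9 transcripts were called, 22.2% against 18.3% of all genes: 4 of 9 with siNRP1#5, 2 with siNRP1#3, 2 with shNRP1#5 and 0 with shNRP1#3. The tests of equality between lines called 0 of 9 for siNRP1#3 (3.42% of genes), shNRP1#3 (0.747%) and shNRP1#5 (3.81%).

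**Figure D5:**
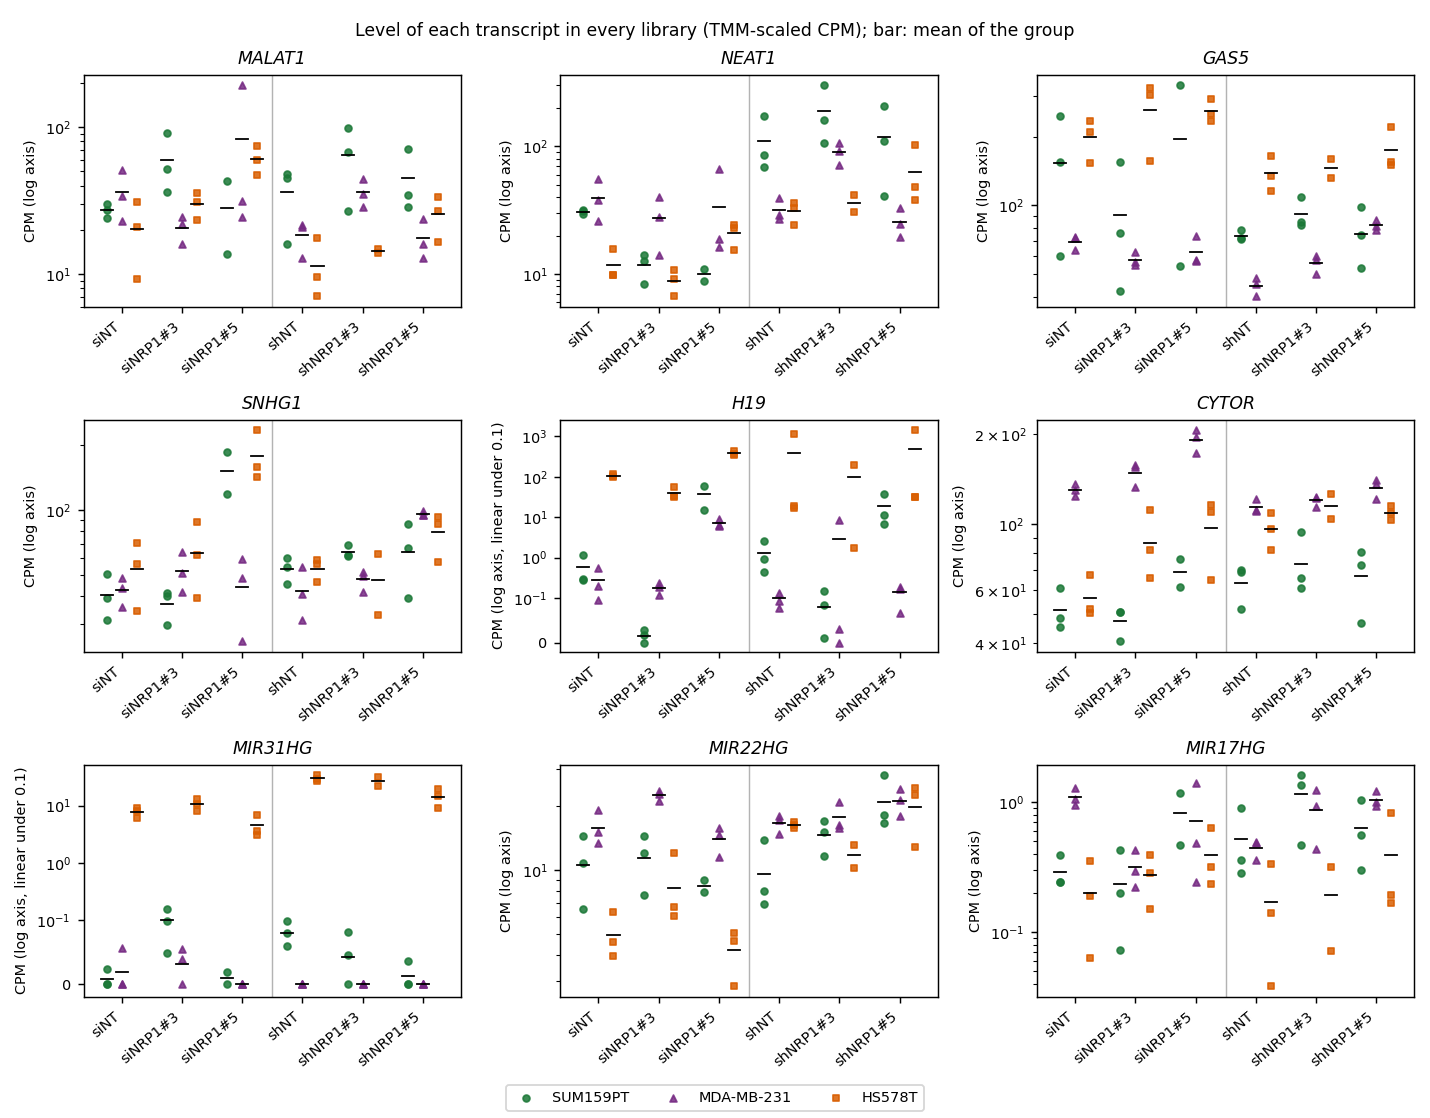
Level of each transcript in every library, in CPM on a log axis (linear under 0.1 for H19 and MIR31HG), by treatment, with colour and shape for the cell line and a bar for the group mean. SNHG1 libraries of SUM159PT and HS578T siNRP1#5 lie at 119 to 234 CPM above their controls, H19 covers the widest range of all, and MIR31HG is seen in HS578T.

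MIR31HG was lower with shNRP1#5 in HS578T, and the call depended on the fit. The line held 29.1, 26.7 and 34.3 CPM with shNT and 14.5, 9.16 and 19.2 CPM with shNRP1#5, with no overlap. The difference was -1.09 ± 0.32 (adjusted p = 0.111) in the main fit, and -1.14 ± 0.21 (adjusted p = 0.00638) with the replicate number as a block within siRNA and shRNA. DESeq2 gave -1.13 (adjusted p = 0.0193). With shNRP1#3 it was at 31 and 22.5 CPM, which overlap the control range. With siRNA it was at 6.09, 8.09 and 9.18 CPM (siNT), 7.96, 10.8 and 13 CPM (siNRP1#3) and 3.14, 3.6 and 6.88 CPM (siNRP1#5), and neither difference was called in the main fit (adjusted p = 0.484 and 0.106). For siNRP1#5, limma on log2(TPM + 0.1) gave -0.94 (adjusted p = 0.0445), and subtraction of the MDA-MB-231 share gave -0.48 (adjusted p = 0.348). MIR31HG held at most 3 counts in an MDA-MB-231 library and at most 7 in a SUM159PT library, so it was not tested in those lines.

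MIR22HG rose in MDA-MB-231 with siNRP1#3, from 15.1, 19.1 and 13.3 CPM to 22.9, 23.5 and 21.1 CPM with no overlap (0.53 ± 0.16, adjusted p = 0.0223), and 25.7% of all genes were called in that comparison. Without any of siNRP1#3 replicate 1 or 2 or siNT replicate 1 or 3 the adjusted p was 0.0664 to 0.103. SUM159PT held 7.94, 6.91 and 13.8 CPM with shNT and 16.7, 27.9 and 18.2 CPM with shNRP1#5, with no overlap and an adjusted p of 0.0508 (1.16 ± 0.34). DESeq2 and limma called it (adjusted p = 0.0145 and 0.0180). Averaged over lines it rose by 0.45 ± 0.17 with siNRP1#3 (adjusted p = 0.0496) and 0.59 ± 0.17 with shNRP1#5 (adjusted p = 0.0124). The first was lost without any replicate number (adjusted p 0.0686 to 0.273) and the second without replicate 2 (0.46, adjusted p = 0.290). In HS578T siNRP1#5 it was at 5.06, 4.64 and 2.84 CPM against 6.32, 3.94 and 4.57 CPM (-0.25, adjusted p = 0.635). After the MDA-MB-231 share was subtracted, the difference was -1.62 (adjusted p = 0.0121). MDA-MB-231 siNT libraries held 15.1, 19.1 and 13.3 CPM.

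MIR17HG was low, below 2 CPM in every library. In MDA-MB-231 siNT held 54, 50 and 56 counts (1.28, 0.943 and 1.05 CPM) and siNRP1#3 22, 16 and 8 counts (0.426, 0.295 and 0.222 CPM), with no overlap. The fall was 1.74 ± 0.47 (adjusted p = 0.0105). With siNRP1#5 the libraries were at 1.4, 0.482 and 0.24 CPM, above and below the control range. With shNT the line held 0.359, 0.483 and 0.493 CPM and with shNRP1#5 1.21, 0.927 and 0.993 CPM, which do not overlap (1.23 ± 0.44, adjusted p = 0.0505). It was called by DESeq2 (adjusted p = 0.0476), by limma (0.0375) and in a fit on the 2 groups alone (0.00160). The siNRP1#5 change less the shNRP1#5 change was -1.81 ± 0.61 (adjusted p = 0.0387), and 10 of the libraries, left out in turn, each took the adjusted p to between 0.0532 and 0.0871. In the other lines no MIR17HG change was called, at 1 to 40 counts a library in HS578T and 3 to 88 in SUM159PT.

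Of 24 other miRNA host genes, 22 were tested in the averages. With siNRP1#5, 5 rose and 1 fell, led by MIR503HG (2.26 ± 0.41, adjusted p = 5.48e-05) and MIR181A1HG (1.65 ± 0.54). With siNRP1#3, 2 rose and 1 fell, with MIR9-1HG at 1.59 ± 0.40 and MIR181A2HG at 0.88 ± 0.28. MIR210HG, a hypoxia-induced host, was the only call with shNRP1#5 (-0.92 ± 0.30), and shNRP1#3 gave none. The shares called were 27.3%, 13.6% and 4.55% for siNRP1#5, siNRP1#3 and shNRP1#5, against 30.3%, 21.3% and 15.5% of all genes. A list of 22 other long noncoding RNAs, of which 21 were tested, gave 5 higher and 1 lower with siNRP1#5, 4 lower with siNRP1#3, 3 higher and 1 lower with shNRP1#5 and 2 higher with shNRP1#3. In that order these are 28.6%, 19.05%, 19.05% and 9.52%, against 30.3%, 21.3%, 15.5% and 5.91% of all genes. UCA1, a lncRNA found in carcinomas, rose by 4.62 ± 0.47 with shNRP1#5 (adjusted p = 5.52e-09), from at most 0.280 CPM to between 13.8 and 55.5 CPM in SUM159PT and from at most 4.98 to between 35.3 and 76.3 CPM in MDA-MB-231. With siNRP1#5 it rose by 3.09 ± 0.69. LINC00511 fell by 0.86 ± 0.15 on the log2 scale with shNRP1#5. MEG3 fell by 1.58 ± 0.54 with siNRP1#3 and by 1.89 ± 0.67 with siNRP1#5, and CRNDE fell by 0.74 ± 0.21 with siNRP1#3 and was 0.72 ± 0.22 higher with shNRP1#3. HOTAIRM1 was 2.10 ± 0.44 higher with shNRP1#3.

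The non-targeting controls of the 2 delivery modes also differed, and they differ in reagent, time and seeding together, which cannot be told apart. Of 25 tests of shNT against siNT, 7 were called, 28% against 17.6% of all genes. HS578T gave 4 of 9, all higher (17.9% of genes called), SUM159PT 1 of 8 (14.4%) and MDA-MB-231 2 of 8, both lower (20.6%). NEAT1 was higher with shNT in SUM159PT (1.80 ± 0.49, adjusted p = 0.0244) and HS578T (1.41 ± 0.34, adjusted p = 0.00981), where the shNT libraries held 36.2, 24.2 and 32.6 CPM. The SUM159PT call was lost without shNT replicate 2 or 3 or siNT replicate 1 or 2 (adjusted p 0.0634 to 0.0861), and the HS578T call without siNT replicate 2 (0.0539). In MDA-MB-231 the NEAT1 difference was -0.34 ± 0.49. MIR31HG and MIR22HG were higher with shNT in HS578T, by 1.97 ± 0.33 (adjusted p = 0.0015) and 1.74 ± 0.33 (adjusted p = 0.00275), as was CYTOR by 0.78 ± 0.24 (adjusted p = 0.0350). The CYTOR call was lost without shNT replicate 2 or 3 or siNT replicate 1 or 2 (adjusted p 0.0966 to 0.130), and after subtraction of the MDA-MB-231 share (0.0674). GAS5 was lower with shNT in MDA-MB-231 (-0.67 ± 0.12, adjusted p = 0.000645), and so was MIR17HG (-1.31 ± 0.44, adjusted p = 0.0407). Each of 11 libraries, left out in turn, took the MIR17HG value above the threshold (adjusted p 0.0504 to 0.130), among them every shNT and siNT library. Paraspeckle and speckle proteins were higher with shNT, 8 of 14 in SUM159PT (median 0.84) and 10 of 14 in HS578T (median 1.09), with none lower, whereas MDA-MB-231 gave 1 higher and 1 lower.

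The genes whose pattern was most like each transcript over the 52 libraries, on log2(CPM + 0.1) with the mean of each line subtracted, were sought among 23416 genes by Pearson r, as a description. NEAT1 was most like MAMDC4 (r = 0.89) and GOLGA8B (0.87), and GAS5 was most like ENSG00000309777 (0.90) and ZFAS1, another snoRNA host (0.89). SNHG1 was most like RPP30, a subunit of RNase P (0.84), AMD1 (0.77) and BRIX1, a ribosome biogenesis factor (0.77). H19 was most like ENSG00000294171 (0.93) and LSP1 (0.92). CYTOR was most like MICALL1 (0.79) and RHOB (0.78), MALAT1 like RUFY3 (0.70), MIR31HG like LINC01940 (0.83), MIR22HG like LINC03009 (0.81) and MIR17HG like NUTM2A-AS1 (0.74). The libraries share lines, reagents and depth, so no p is given.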

How the data were processed

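Poly(A)-enriched stranded RNA libraries of 52 cultures in 18 groups were sequenced as read pairs. The authors checked and trimmed reads (FastQC 0.11.9, Trim Galore 0.6.5), aligned them to GRCh38 (STAR 2.7.2b) and estimated expression (RSEM 1.3.3). They deposited expected counts and TPM per gene and an isoform percent per transcript. RSEM divides reads that fit several transcripts, so near-identical genes are uncertain. Expected counts were rounded here, and genes were kept by edgeR's filterByExpr, TMM scaled and tested by edgeR 4.0.16 (R 4.3.3) quasi-likelihood with robust fitting, in 1 model of 6 groups per line and 1 model of 18 groups over the 52 libraries. P-values were adjusted (Benjamini-Hochberg) over all genes tested, 20067 in SUM159PT, 18800 in MDA-MB-231, 19661 in HS578T and 23416 over all libraries, with a threshold of 0.05. They measure the spread pooled over these siRNA cultures and shRNA passages.

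Alternatives were another scaling, no low-count filter, DESeq2 1.42.0, limma 3.58.1 on log2(TPM + 0.1), fits on 2 groups, replicate blocks, subtraction of the MDA-MB-231 profile and libraries left out. The members and lists were chosen with earlier results of these data known. Named genes are the 9 members, NRP1, the 3 genes with the highest r per member, and up to 2 genes with the largest change past the threshold per list and averaged contrast; MIR4435-2HG, TALAM1 and the MDA-MB-231 snoRNA hosts named singly were chosen after their values were seen. Same-numbered HS578T shRNA libraries deviated together (correlations 0.232 to 0.761, 7 pairs), and the labels give a number as a replicate only. All 50 replicate pairs differed beyond sampling noise (lowest chi-square per degree of freedom 11.0). Depth was 25310443 to 72003442 expected counts. On simulated data the fit recovered 39% of 200 genes changed by 1.5 (log2) for SUM159PT siNRP1#5 (20067 genes, 1 false call) and 72.5% of 200 changed by 1 for the averaged siNRP1#5 contrast (23416 genes, 4 false calls). The simulated libraries were independent, with the same spread for every gene, and only genes with many counts were changed. These rates therefore need not hold for transcripts with few counts or a wide spread. Sequences were read from the GRCh38 genome and RefSeq. Some genes that the naming rule picks are not reported here.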

Additional observations from a re-analysis of the deposited data

Results flagged for a closer look

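In all, 6 differences were picked out because the same contrast gave different sizes in different groups, each by a test of the difference itself. Across the 3 cell lines, the siNRP1#5 change differed for SNHG1 (F = 10.97, adjusted p = 0.00276) and for NEAT1 (F = 5.70, adjusted p = 0.0412). The NEAT1 call was lost without the HS578T siNRP1#5 libraries (adjusted p = 0.342). Between siRNA and shRNA of the same #5 sequence, the change (siRNA less shRNA, log2) differed in MDA-MB-231 for GAS5 (-1.01, adjusted p = 0.000257), SNHG1 (-1.11, adjusted p = 0.0287) and MIR17HG (-1.81, adjusted p = 0.0387). In SUM159PT it differed for SNHG1 in the other direction (1.63, adjusted p = 0.0425). NRP1 stood at 3.32% of control with siNRP1#5 and 48.1% with shNRP1#5 in MDA-MB-231, and at 4.98% and 19.9% in SUM159PT, and the part of that gap in these differences was not tested. The control levels differed too. In MDA-MB-231 GAS5 averaged 44.7 CPM with shNT and 69.5 CPM with siNT, and MIR17HG 0.445 and 1.09 CPM. SNHG1 averaged 42.3 and 42.7 CPM there, and 53.5 and 40.6 CPM in SUM159PT. The part of the control levels in these differences was not tested either.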

How the results depend on the processing

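No called result reversed. MIR22HG in HS578T against SUM159PT, not called in all controls (-0.17), was called at -1.10 with siNT alone and at 0.76 with shNT alone. The 13 calls of knockdown within a line became 20 with DESeq2, 33 with no low-count filter and 22 with a replicate block within siRNA and shRNA, and 11 to 17 with single libraries left out. With no low-count filter the 8 averaged calls became 13, the 2 calls of unequal change between lines 9, the 7 of shNT against siNT 13 and the 4 of siRNA less shRNA change 9, and the cause was not tested. The averaged calls were 4 to 7 without a replicate number, the unequal-change calls 0 to 1 (and 1 without the HS578T siNRP1#5 libraries), the shNT against siNT calls 5 to 8, the line differences 14 to 17 and the siRNA less shRNA calls 2 to 5 on leaving out libraries. The lower end of 2 came without MDA-MB-231 shNRP1#5 replicate 2 or 3, shNT replicate 2 or 3, or siNT replicate 1 or 2. With the replicate block over all samples, 17 calls were made within lines. Of single called results 48 kept their side of the threshold and 2 lost it. These were MALAT1 averaged over lines with siNRP1#5 (0.80, adjusted p = 0.0794) and MALAT1 in HS578T against SUM159PT (-0.51, adjusted p = 0.406). The model over all lines set these blocks per line. Its differences between lines are therefore taken at replicate 1 alone, another quantity than in the main fit. Another scaling kept all 50. Outside HS578T shRNA, same-numbered pairs did not all correlate above 0.1, so pairing was not established there. The lowest correlations were -0.442 to 0.0765, but SUM159PT siRNA pairs were all positive (median 0.373) and MDA-MB-231 siRNA pairs had a median of 0.387. Blocked within siRNA and shRNA, calls were gained for GAS5 in SUM159PT siNRP1#3 (-0.72, adjusted p = 0.0321) and MIR31HG in HS578T siNRP1#5 (-0.84, 0.0108). So were MIR22HG in SUM159PT shNRP1#5 (1.20, 0.0178) and MIR17HG in MDA-MB-231 shNRP1#5 (1.27, 0.0119). For shNT against siNT this block takes the difference at replicate 1 alone, another quantity than in the main fit. There the calls on CYTOR in HS578T (0.61, 0.115) and on NEAT1 in HS578T (1.27, 0.0527) and SUM159PT (2.06, 0.0766) were lost. GAS5 in SUM159PT (-1.08, 0.0307) and H19 in HS578T (3.39, 5.93e-05) were gained. The block within siRNA and shRNA, and the rule for markers of other lines by mean level, were chosen after seeing the data. Calls on H19 and MIR17HG rest on few counts, and with 3 libraries a group the smallest exact permutation p is 0.1.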
